A study of Mus musculus with 23 samples.

Results

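The formyl peptide receptor family was described from 4 of the 754 genes counted in 23 mouse left lungs, namely Fpr1, Fpr2, Fpr3 and Fpr-rs4, chosen by gene name. Formyl peptide receptors are G protein-coupled receptors of neutrophils, monocytes and macrophages that sense formylated peptides released by bacteria and by damaged mitochondria. In mice, Fpr1 is the high-affinity receptor for such peptides, whereas Fpr2 also binds annexin A1, serum amyloid A, the cathelicidin peptide and pro-resolving lipid mediators. Signals pass through an inhibitory G protein to chemotaxis, degranulation and the oxidative burst, and in the lung the receptors are known for guiding phagocytes toward inhaled microbial material. Fpr3 and Fpr-rs4 belong to the rodent expansion of the family, whose members are known best from sensory neurons of the vomeronasal organ.

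The lungs had been instilled 14 times with an extract of organic dust or with PBS, called saline here, in mice that were either wild type (WT) or Fat-1. Fat-1 mice carry a desaturase gene of Caenorhabditis elegans that makes omega-3 from omega-6 fatty acids, the precursors of several lipids that act on Fpr2. The promoter of the transgene, the background strain and the age of the mice are not stated in the labels. By extract code, dust was given to 4 WT females, 3 WT males, 3 Fat-1 females and 3 Fat-1 males, and saline to 2 WT females, 3 WT males, 2 Fat-1 females and 3 Fat-1 males. Lavage fluid had been taken from every whole lung, control lungs included, before the left lobe was removed. Each lung came from a separate mouse. The labels put the extraction of 12 lungs on one day (day 1) and that of 11 on another (day 2), and lungs are named here by genotype, sex, exposure, replicate number and day.

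Values were normalized probe counts with a floor of 20, under which no level was recorded. Each lung's recovered counts summed to between 110453 and 812429. The floor corresponded to values between 20.3 and 47.3 in dust lungs and between 20.4 and 84.3 in saline lungs, depending on each lung's scale factor. The labels of 4 lungs disagreed on genotype, sex or exposure between title, characteristics and code. In Fat-1 female dust lung 2 of day 1 the ratio of a pair of neighbouring positive controls was 1.07, against 2.66 to 3.51 in the other lungs, and WT female saline lung 1 of day 2 had 3.38 times the median positive-control total. The file headers carry a message of too concentrated a sample, called the saturation message here, for 2 other lungs, Fat-1 male dust lung 1 of day 2 and WT male saline lung 1 of day 2, whose positive-control totals were 0.266 and 0.227 of the median. The dust differences of Fpr1 and Fpr2 are given with and without these lungs, and other results of these receptors without some of them where stated. Differences of other genes are given with all lungs.

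The family lies in a cluster on chromosome 17, in the order Fpr1, Fpr2, Fpr3, Fpr-rs5, Fpr-rs4, Fpr-rs7, Fpr-rs6 and Fpr-rs3 in the RefSeq gene table. Fpr1 and Fpr2 point away from each other, with annotated starts 3885 bases apart. The 250 bases before the annotated start of each (RefSeq, GRCm38.p6) are shown because these neighbours, which were the members above the floor in every lung, rose by unequal amounts. The windows are chr17:17883940-17884189 on the minus strand for Fpr1 and chr17:17887574-17887823 on the plus strand for Fpr2. Capitals mark matches to C/EBP letters (TTNNGNAA) or STAT letters (TTCNNNGAA), both families of factors active in myeloid cells.
Fpr1: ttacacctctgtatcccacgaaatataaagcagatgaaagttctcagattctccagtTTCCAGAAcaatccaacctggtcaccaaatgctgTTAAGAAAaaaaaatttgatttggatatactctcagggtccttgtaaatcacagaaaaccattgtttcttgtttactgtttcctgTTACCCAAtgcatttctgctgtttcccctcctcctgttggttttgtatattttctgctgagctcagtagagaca
Fpr2: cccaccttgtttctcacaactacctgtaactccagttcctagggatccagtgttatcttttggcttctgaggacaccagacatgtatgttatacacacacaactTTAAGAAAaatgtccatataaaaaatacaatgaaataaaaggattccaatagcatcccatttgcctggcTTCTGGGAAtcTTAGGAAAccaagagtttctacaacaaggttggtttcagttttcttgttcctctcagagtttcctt
Searched on both strands, the C/EBP letters matched 3 times before Fpr1 and 2 times before Fpr2, and 36.9% of 27025 RefSeq mouse promoter windows of the same length held at least 1 match. The STAT letters matched 1 time before Fpr2, 77 bases before its start, and not before Fpr1; 7.18% of windows held them. Letters for PU.1 (GAGGAAG), NF-kappa-B and AP-1 (TGANTCA) had no match in either window, against 10.4%, 1.4% and 6.87% of all windows. No marked match overlapped another. The window before Fpr3 held 2 C/EBP matches and that before Fpr-rs4 held none of the 5 patterns. These matches are descriptions of letters, and binding was not measured.

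Fpr2 was the member that differed most between dust and saline lungs. In WT saline lungs its normalized count was 239.8 and 242 in the females and 218, 204 and 276 in the males. In Fat-1 saline lungs it was 222 and 240.1 in the females and 211, 315 and 209 in the males. The 10 saline lungs thus lay within a narrow band whose highest value was 1.55 times its lowest. After dust, Fpr2 stood at 1575, 1954, 400.1 and 903 in the WT females and at 1843, 1376 and 1202 in the WT males. The Fat-1 dust females had 1716, 4068 and 705, and the Fat-1 dust males 1047, 1072 and 1427. No dust lung fell within the saline range, but the dust lungs differed among themselves by 10.2 times, from WT female dust lung 2 of day 2 at the bottom to Fat-1 female dust lung 2 of day 1 at the top. Such a separation of groups, with every dust lung above every saline lung, was seen for 25 of 711 tested genes, or 3.52%.

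Fpr1 followed the same direction with a smaller difference. In saline its normalized count was 188 and 150.0 in the WT females, 127, 122 and 177 in the WT males, 112 and 129 in the Fat-1 females and 164, 122 and 137 in the Fat-1 males. In dust it was 269.8, 410.3, 186 and 352 in the WT females and 407, 348 and 386 in the WT males. The Fat-1 dust females had 296, 277 and 298, and the Fat-1 dust males 205, 200.4 and 375. Of the 13 dust lungs, 12 lay above the highest saline lung; the exception was WT female dust lung 2 of day 2, which was also the lowest dust lung for Fpr2. The plot of the members by lung shows both patterns on one scale.

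**Figure D1:**
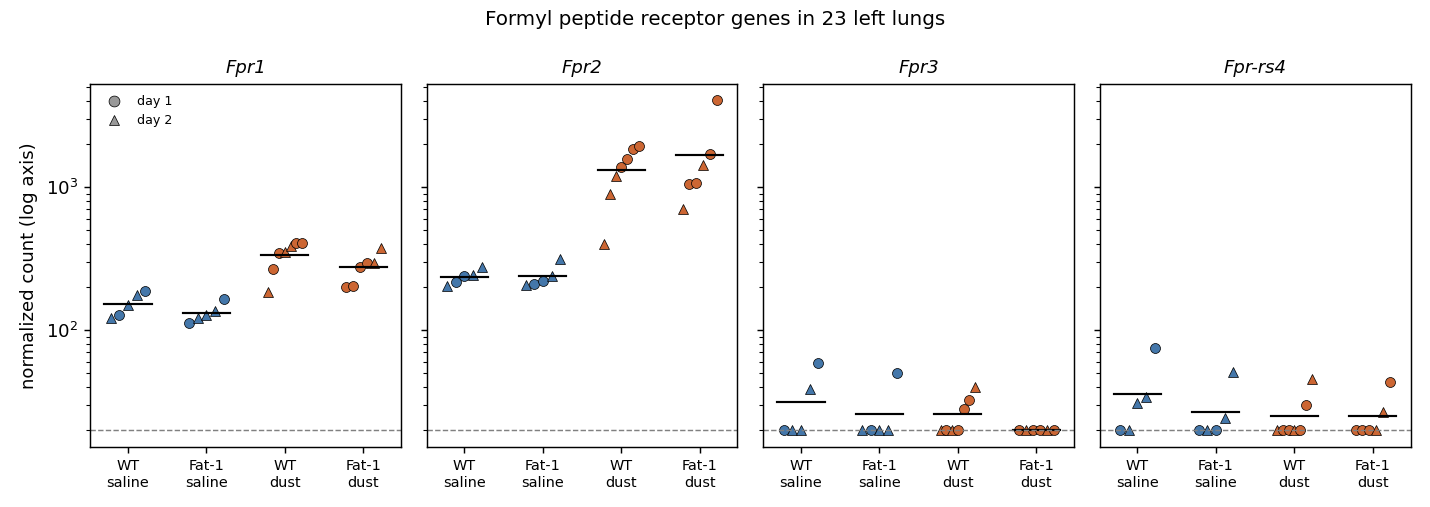
Normalized count of Fpr1, Fpr2, Fpr3 and Fpr-rs4 in each of 23 lungs on a log axis, by genotype and exposure; circles are day 1 lungs, triangles day 2 lungs, blue saline, orange dust, the black line the group mean and the dashed line the floor of 20. Fpr2 ran from 204 to 315 in saline and from 400.1 to 4068 in dust, while Fpr3 and Fpr-rs4 were at the floor in most lungs.

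Against this background of replicate spread, both receptors rose. Fpr2 averaged 1484 ± 897 in dust (SD, n = 13) and 238 ± 34.6 in saline (SD, n = 10). Its log2 difference, averaged over the 4 strata of genotype and sex, was 2.47 (SE 0.27, 95% interval 1.90 to 3.05, limma adjusted p = 5.7e-06), or 5.55-fold, and it ranked 17 among 711 tested genes in size. Fpr1 averaged 308 ± 78.5 in dust and 143 ± 25.8 in saline, and its log2 difference was 1.08 (SE 0.14, 95% interval 0.78 to 1.38, limma adjusted p = 2.0e-05), or 2.11-fold, at rank 145. On this panel, itself a myeloid selection, 43.3% of tested genes were called higher and 9.99% lower in dust, and the median gene differed by 0.26, so a call alone did not set these receptors apart. Another scaling moved that median to -0.13 (each lung centred on its median) or 0.12 (housekeeping genes), and the split of calls from 308 higher and 71 lower to 202 and 244 or 254 and 115. Fpr2 differed by 2.08 and 2.33 under those scalings and Fpr1 by 0.69 and 0.94, and all 4 values passed the test. Because whole lobes were measured, a larger share of cells that carry a receptor and more receptor RNA per cell cannot be told apart.

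The rise of both receptors did not rest on the lungs in doubt. Leaving out the 2 lungs with the low control ratio and the high control total, the dust difference of Fpr2 was 2.32 (limma adjusted p = 1.3e-05) and that of Fpr1 1.05 (adjusted p = 0.00012). Leaving out the 4 lungs with conflicting labels gave 2.43 (adjusted p = 0.00088) and 1.06 (adjusted p = 0.0015). Leaving out the 2 lungs with a saturation message gave 2.47 and 1.05 (adjusted p = 4.5e-05 for each). Without the highest lung alone, the dust mean of Fpr2 was 1268 ± 469.9 (SD, n = 12).

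The comparison of genotypes asks whether a tissue rich in omega-3 fatty acids carries the receptors at other levels, in saline or after dust. Fpr2 rose in both genotypes. In WT lungs it went from 236 ± 27.3 (SD, n = 5) to 1322 ± 544 (SD, n = 7), a log2 difference of 2.37 (SE 0.38, limma adjusted p = 0.00064), where 30.7% of genes were called higher and 4.64% lower. In Fat-1 lungs it went from 239 ± 44.1 (SD, n = 5) to 1672 ± 1224 (SD, n = 6), a log2 difference of 2.58 (SE 0.39, adjusted p = 0.0007), where 32.2% of genes were called higher and 5.91% lower. The difference between these rises was 0.21 on the log2 scale, with a 95% interval of -0.94 to 1.36 (adjusted p = 0.999), so the interval held both smaller and larger rises in Fat-1 lungs. In saline the genotypes differed by -0.00 in Fpr2 (95% interval -0.87 to 0.87) and in dust by 0.21 (95% interval -0.55 to 0.96, adjusted p = 0.98). The value in dust turned to -0.10 when the highest lung, a Fat-1 female of day 1, was left out and to -0.02 without WT female dust lung 2 of day 2, so it has no settled direction.

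Fpr1 likewise rose in both genotypes, by 1.11 in WT (SE 0.20, limma adjusted p = 0.00097) and by 1.04 in Fat-1 (SE 0.20, adjusted p = 0.0019). Grouped by title, the Fat-1 value was 1.06 and missed the threshold (adjusted p = 0.058). Its interaction of genotype and exposure was -0.07, with a 95% interval of -0.67 to 0.53 (adjusted p = 0.999). In dust, Fpr1 averaged 275 ± 65.4 in Fat-1 lungs (SD, n = 6) and 337 ± 81.9 in WT lungs (SD, n = 7), and the difference of -0.31 (95% interval -0.70 to 0.08) had an unadjusted p of 0.11 and an adjusted p of 0.98. The limma fit called 0 of 711 genes, 0%, in the genotype contrasts in dust, in saline and for the interaction, and at an unadjusted p under 0.05 it had 22, 10 and 21 genes. In Fpr2, females differed from males by 0.02 in dust (95% interval -0.73 to 0.78) and 0.00 in saline (95% interval -0.87 to 0.87). For Fpr1 the corresponding values were -0.08 (95% interval -0.47 to 0.31) and 0.02 (95% interval -0.43 to 0.47), and neither gene passed the test in any sex contrast. The fit called 0 genes in the sex contrasts, and had 23 in dust, 14 in saline and 14 for sex by exposure at an unadjusted p under 0.05.

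**Figure D2:**
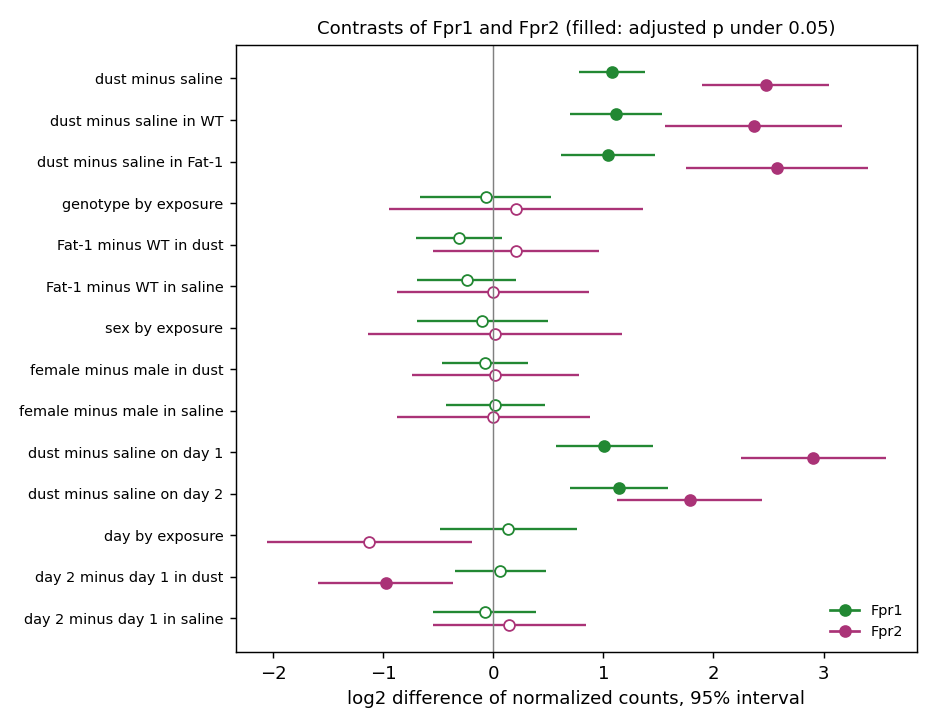
Log2 differences of Fpr1 (green) and Fpr2 (purple) in each contrast with 95% intervals from limma, in log2 units of normalized count; filled points had an adjusted p under 0.05. Dust minus saline was above 0 for both genes in either genotype and on either day, and the day contrast in dust was below 0 for Fpr2 at -0.98.

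The dust lungs of the pair of extraction days did not have the same Fpr2. On day 1, Fpr2 in dust ran from 1047 over a median of 1646 to 4068 in 8 lungs. On day 2 it was 400.1, 903 and 1202 in WT and 705 and 1427 in Fat-1 lungs. The day groups overlapped, with 2 day 2 lungs inside the day 1 range. Fpr2 was lower in day 2 dust lungs by 0.98 on the log2 scale (SE 0.29, limma adjusted p = 0.032), as were 13.2% of genes, while 1.97% were higher and the median gene differed by -0.16. In saline the day difference was 0.15 (95% interval -0.55 to 0.84). In saline, 0.141% of genes were called higher on day 2 and 0% lower. The test of whether the day difference depended on exposure gave -1.12 (SE 0.45, unadjusted p = 0.021, adjusted p = 0.15) and did not pass, while 1.69% of genes were called lower and 0% higher in it.

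Whether this day difference in Fpr2 passed the threshold was not stable, while its sign held throughout. Of 12 alternatives, 11 kept the call. Leaving out 1 lung at a time gave -1.21 to -0.71, and 17 of 23 such fits kept the call. Without the lungs in doubt the day difference was -0.78 (limma adjusted p = 0.055). It also missed the threshold without WT female dust lung 2 of day 2 (-0.71, adjusted p = 0.11), Fat-1 female dust lung 1 of day 2 (-0.88, adjusted p = 0.096) or WT female dust lung 2 of day 1 (-0.93, adjusted p = 0.065). The same held without WT male dust lung 1 of day 1 (adjusted p = 0.059), WT female dust lung 1 of day 2 (adjusted p = 0.058) or WT male dust lung 2 of day 1 (adjusted p = 0.054). The test of day by exposure for Fpr2 did pass in 1 of 23 such fits, the one without Fat-1 male dust lung 1 of day 2, which has a saturation message. Of the dust lungs, 4 of 5 on day 2 and 2 of 8 on day 1 had run on the same cartridge, and the part of the cartridge in this difference was not tested.

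Within each day, both receptors rose. Fpr2 differed between dust and saline by 2.91 on day 1 (SE 0.32, limma adjusted p = 8.8e-07), where 41.6% of genes were called higher and 11.5% lower, and by 1.78 on day 2 (SE 0.32, adjusted p = 0.0024), where 12.8% were called higher and 0.422% lower. For Fpr1 the values were 1.01 (SE 0.21, adjusted p = 0.00047) and 1.15 (SE 0.21, adjusted p = 0.0028), and its day difference in dust was 0.06 (95% interval -0.35 to 0.48). On each day, every dust lung was above every saline lung of that day for Fpr1 and for Fpr2. The share of all genes so separated within a day was not counted, so nothing particular to the receptors is read from it. Over both days together 3.52% of genes were so separated, Fpr2 among them, while Fpr1 overlapped. Fitted on the 11 day 2 lungs alone, the differences were 1.92 and 1.22, but neither passed (adjusted p = 0.064 and 0.073), as only 3 genes did in that fit. By title, the day 2 differences of 1.42 for Fpr2 and 0.91 for Fpr1 did not pass either (adjusted p = 0.22 for each).

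Since the scale factor of a lung cancels between genes of that lung, the ratio of Fpr2 to Fpr1 was followed as well. The 2 probes may be counted with different efficiency, so the ratio has meaning only between lungs. It ran from 1.28 over a median of 1.65 to 2.58 in saline and from 2.15 over a median of 4.53 to 14.7 in dust. Of the 13 dust lungs, 10 lay above the highest saline lung. On the log2 scale, Fpr2 minus Fpr1 was 2.11 ± 0.72 in dust (SD, n = 13) and 0.74 ± 0.30 in saline (SD, n = 10). The difference of 1.37 passed a two-sided permutation test (p = 4e-05, and 0.00044 adjusted over 11 comparisons of this ratio). Fpr2 therefore rose more than Fpr1 in the same lungs, by 1.23 in WT (exact permutation p = 0.0025, adjusted p = 0.0093) and by 1.55 in Fat-1 lungs (exact permutation p = 0.0087, adjusted p = 0.019). Once the dust lung with the low control ratio was set aside, the Fat-1 value was 1.25 (exact permutation p = 0.016, not adjusted). That value was close to the one in WT.

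The ratio also separated the days in dust. It was 2.51 ± 0.58 in the 8 day 1 lungs, from 1.98 to 3.87, and 1.45 ± 0.33 in the 5 day 2 lungs, from 1.10 to 1.93, so the days did not overlap. The difference of -1.06 passed an exact permutation test (p = 0.0016, adjusted p = 0.0086); this comparison was added after the data had been seen. With the Fat-1 female of day 1 that had the highest value, 3.87, left out, the day 1 lungs ran from 1.98 to 2.54 and the difference was -0.87 (exact permutation p = 0.0025). In saline, the days differed by 0.20 (exact permutation p = 0.33, adjusted p = 0.37). In dust, Fat-1 minus WT lungs was 0.53 in this ratio, which did not pass (exact permutation p = 0.22, adjusted p = 0.30), and 0.23 without that lung (exact permutation p = 0.47). Within day 1 the genotypes differed by 0.55 (exact permutation p = 0.14) and within day 2 by 0.22 (exact permutation p = 0.60, where the smallest possible p is 0.1).

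Most neutrophil markers were higher in dust over both days together. Of 8 tested, 6 were higher and none was lower under the deposited scaling (6 and 1 after median centring), with a median of 2.01. Over all tested genes, 43.3% were called higher and 9.99% lower. The summed level of the 9 markers on the panel ran from 1616 over a median of 13430 to 41590 in dust. In saline it ran from 1574 over a median of 2160 to 3537. By day, 6 of the 8 were higher in dust on day 1, against 41.6% of all tested genes. On day 2 it was 0 of 8, against 12.8%. Their median difference was still above 0 on day 2, at 0.852, against 2.875 on day 1. S100a9 and S100a8, the alarmins that fill neutrophil cytoplasm, differed by 2.18 (SE 0.53, limma adjusted p = 0.0023) and 2.48 (SE 0.60, adjusted p = 0.0021). Ly6g, which defines mouse neutrophils, was above the floor in 4 dust lungs and in no saline lung, Mpo in 1 lung and Elane in none. Ly6g reached at most 54.1, and its difference of 0.25 did not pass (limma adjusted p = 0.21). As the lowest measurable value was up to 84.3 in saline lungs and 47.3 in dust lungs, no difference is read from that split. In dust, 5 of the 8 neutrophil markers were lower and none was higher on day 2, against 13.2% and 1.97% of all tested genes, and their summed level had a median of 22000 on day 1 and 3703 on day 2. The part of these markers in the Fpr2 difference between days was not tested.

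Macrophage and monocyte markers also rose, on a panel where 43.3% of all tested genes were called higher and 9.99% lower in dust. Of 13 monocyte and interstitial macrophage markers, 12 were higher in dust, with a median of 1.64, among them Apoe, a lipid carrier, at 0.82 (SE 0.19, limma adjusted p = 0.0015) and C1qb, a complement subunit, at 2.19 (SE 0.29, adjusted p = 2.0e-05). Their summed level was 5918 to 27810 in dust and 4409 to 5862 in saline. Of 7 alveolar macrophage markers, 5 were higher under the deposited scaling and 3 after median centring, with a median of 0.70; Chil3, a chitinase-like protein, differed by 1.23 (SE 0.27, adjusted p = 0.00098) and Mrc1, the mannose receptor, by 0.70 (SE 0.17, adjusted p = 0.0018; 0.31 and adjusted p = 0.10 after median centring). Their summed level was 6279 to 40580 in dust and 6754 to 20660 in saline.

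Set against the marker lists within a lung, Fpr2 rose more than the mean of either macrophage list, while its difference from the neutrophil mean did not pass. Fpr2 minus the mean of Csf3r, S100a8, S100a9 and Mmp9 was 0.08 ± 0.78 in dust (SD, n = 13) and -0.25 ± 0.26 in saline (SD, n = 10), a difference of 0.34 that did not pass (two-sided permutation p = 0.21). On day 1 that difference was 0.06 (exact permutation p = 0.84), and on day 2 it was 0.86 (exact permutation p = 0.026), a value not adjusted for the choice of days. Fpr2 minus 6 alveolar macrophage markers rose by 1.35 and minus 13 monocyte and interstitial macrophage markers by 0.98, each with a permutation p of 4e-05, or 6e-05 adjusted over 3 lists. Leaving out 1 lung at a time, these rises lay between 1.175 and 1.451 and between 0.915 and 1.035. Each of these lists had at least 3 markers above the floor in every lung. A list mean hides its members: in the monocyte list C1qb differed by 2.19, close to the 2.47 of Fpr2, and Mertk by 0.11. Cxcr2, at 2.78, was not in the neutrophil mean because it was at the floor in some lungs. The SD in dust was 0.78 against the neutrophil mean and 0.42 against the monocyte mean. Which cells carried Fpr2 was not tested.

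**Figure D3:**
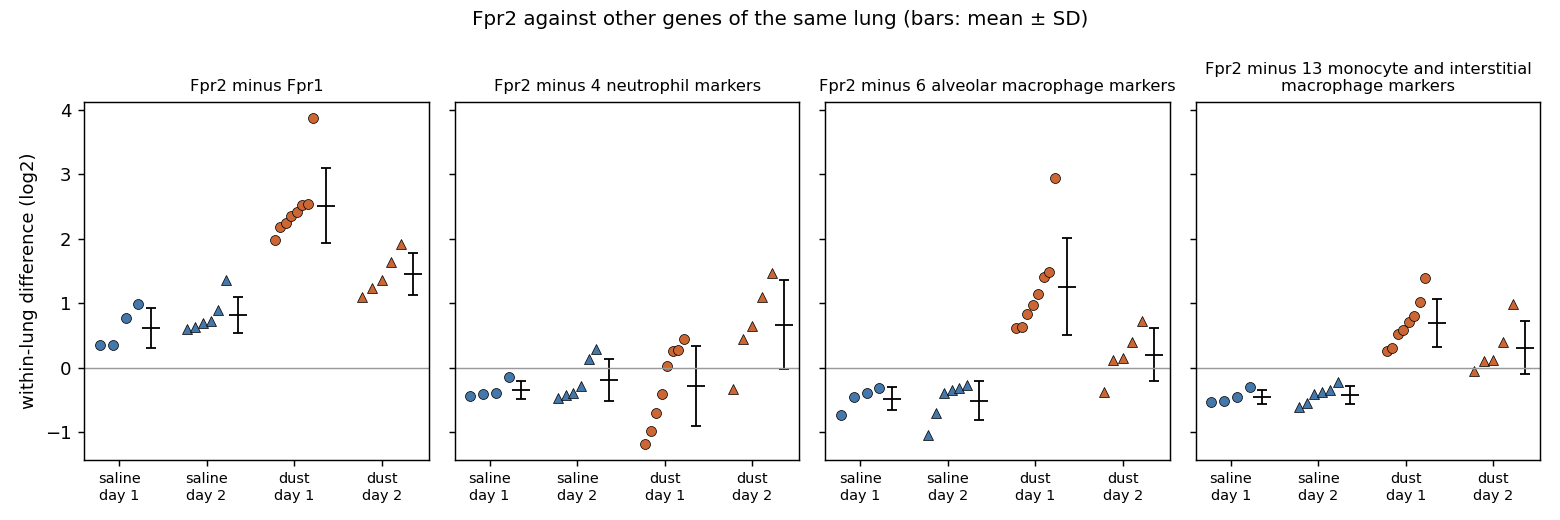
Log2 of Fpr2 minus log2 of Fpr1, or minus the mean log2 of 4 neutrophil, 6 alveolar macrophage or 13 monocyte and interstitial macrophage markers of the same lung, by exposure and day; each point is a lung, blue saline and orange dust, and bars give mean ± SD. Fpr2 minus Fpr1 ran from 1.98 to 3.87 in dust lungs of day 1 and from 1.10 to 1.93 in those of day 2.

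The remaining marker lists had between 1 and 6 tested genes, beside the 43.3% of all tested genes called higher and 9.99% called lower in dust. Of 4 eosinophil markers 1 was higher, Siglecf at 0.62 (limma adjusted p = 0.0025; 0.22 and not called after median centring), which alveolar macrophages share, while Ccr3 was at -0.03 (adjusted p = 0.92) and Epx was at the floor in every lung; after median centring none of the 4 was higher and 1 was lower. Of 6 dendritic cell markers 4 were higher, among them Irf8 at 0.47 (adjusted p = 0.0094), while Ccr7 was at 0.15 (adjusted p = 0.57); after median centring 2 were higher and Irf8 was at 0.08. The B cell marker Ms4a1 was at -0.01 (adjusted p = 0.98). Gzma of cytotoxic lymphocytes was lower by 0.82 (adjusted p = 0.00063) and Nkg7 was at -0.13 (adjusted p = 0.61; -0.52 and called lower after median centring, adjusted p = 0.017). The 3 endothelial markers were lower, with Thbd at -1.08 and Tek at -0.96. Of 2 epithelial markers, Lamp3 of alveolar type II cells was called higher at 0.29 (adjusted p = 0.038; -0.10 after median centring) and Cdh1 was at -0.00 (adjusted p = 0.99; -0.39 and called lower after median centring, adjusted p = 0.0062), while the platelet gene Pf4 was higher by 1.36. The 3 endothelial and 2 epithelial markers were above the floor in every lung, as were 470 of the 711 tested genes. This is only a weak check of the labelled tissue.

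Fpr3 and Fpr-rs4 were barely measurable. Fpr3 was above the floor in 6 of 23 lungs, with 22 to 44 recovered counts. Those lungs were WT female dust lung 1 of day 1 at 32.6, WT male dust lung 1 of day 1 at 28.3, WT female dust lung 2 of day 2 at 40.2, Fat-1 female saline lung 1 of day 1 at 50.1, WT male saline lung 1 of day 1 at 59.0 and WT female saline lung 1 of day 2 at 39.1. None of the 6 Fat-1 dust lungs was among them, against 3 of 7 WT dust lungs. In the 4 Fat-1 dust lungs of day 1, however, the lowest value above the floor was between 34.9 and 47.3. Levels such as the 32.6 and 28.3 of WT dust lungs could not have been recorded there, so no genotype difference is read. Fpr-rs4 was above the floor in 9 lungs, 4 dust and 5 saline, with 20 to 35 recovered counts and values between 24.3 and 74.9. Counting error alone gives an SD of 15.1% to 22.4% at such counts.

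The lungs above the floor for these genes were partly the same. Both were above it in 4 lungs, which is 66.7% of the Fpr3 lungs and 44.4% of the Fpr-rs4 lungs, and neither in 12. In each of those lungs the value exceeded the highest negative control of that lung, whose raw count ran from 7 to 28 between lungs. Neither gene passed the test between dust and saline, with log2 differences of -0.26 for Fpr3 (SE 0.20, limma adjusted p = 0.30) and -0.19 for Fpr-rs4 (SE 0.23, adjusted p = 0.51). Median centring, which also moves values held at the floor, gave -0.65 for Fpr3 (adjusted p = 0.015), and the day 1 lungs alone gave -0.55 (adjusted p = 0.043). As most values were at a floor that differed between lungs, no direction was drawn. The other 3 family genes of the panel, Fpr-rs3, Fpr-rs5 and Fpr-rs6, were at the floor in all 23 lungs. The probes' sequences were not used here, so whether a probe also counts transcripts of a close family member was not tested.

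Genes for ligands of the receptors were followed next, beginning with the proteins that Fpr2 binds. Of 5 ligand genes on the panel, 2 were higher in dust, none was lower, and the median was 0.00; over all tested genes 43.3% were higher and 9.99% lower, so the share of ligand genes was near that of the panel. Anxa1, which encodes annexin A1, the glucocorticoid-regulated protein that acts through Fpr2, went from 1497 ± 303 (SD, n = 10) to 3010.0 ± 1010.0 (SD, n = 13), a log2 difference of 0.99 (SE 0.19, limma adjusted p = 0.00033). Plaur, the urokinase receptor whose cleaved form binds the family, went from 498 ± 43.1 to 930 ± 266, a difference of 0.87 (SE 0.13, adjusted p = 5.5e-05). After median centring, which also shifts values held at the floor, 3 of the 5 were called lower. The others were scarcely measured, with Saa1 above the floor in 1 lung, Ctsg in 1 and Camp, the cathelicidin, in 5, and no level is read from them.

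Lipid mediator genes make or clear ligands of related receptors. Of 8 tested, 2 were higher and 1 was lower, with a median of 0.15. Over all tested genes 43.3% were higher and 9.99% lower, so the share that was lower was near that of the panel. Alox5ap, the protein that presents arachidonic acid to 5-lipoxygenase, was higher by 1.08 (SE 0.18, limma adjusted p = 0.00013). Alox5 itself was at 0.22 (adjusted p = 0.30), and Alox15 at 0.25 (adjusted p = 0.52). Ptgs1, cyclooxygenase 1, was higher by 0.38 (SE 0.09, adjusted p = 0.0022), but at -0.00 after median centring and at 0.25 (adjusted p = 0.051) on housekeeping genes. Hpgd, which inactivates prostaglandins, fell by 1.10 (SE 0.23, adjusted p = 0.00085), from 11060 ± 2336 to 5739 ± 2341. Ptgs2, Lta4h and Ltb4r1 were between -0.01 and 0.09 and did not pass, although Lta4h was called lower after median centring at -0.40 (adjusted p = 0.015).

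Most other chemoattractant receptors on the panel also rose. Of 10 tested, 9 were higher in dust and none was lower under each of the 3 scalings. Under the deposited scaling their median was 1.69, and 43.3% of all tested genes were called higher and 9.99% lower. The list shares Cxcr2 with the neutrophil markers and Ccr2 and Cx3cr1 with the monocyte markers. Ptafr, the receptor for platelet-activating factor, was higher by 2.60 (SE 0.38, limma adjusted p = 4.2e-05) and C3ar1, the receptor for complement C3a, by 2.39 (SE 0.36, adjusted p = 6.1e-05). The chemokine receptor Ccr1 was higher by 2.37 (SE 0.35, adjusted p = 5.0e-05). Ltb4r1, the leukotriene B4 receptor, was the exception at 0.03 (adjusted p = 0.90), and Cxcr1 was at the floor in every lung. In day 2 dust lungs 5 of these 10 receptors were lower than on day 1, Ptafr by 1.52 (adjusted p = 0.015), against 13.2% of all tested genes.

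Genes through which the receptors signal were higher as well. Of 7 tested members of the list, 7 were higher in dust (6 after median centring, where Gnai3 was at 0.01), with a median of 1.44. Under the deposited scaling 43.3% of all tested genes were called higher and 9.99% lower. Cybb, a subunit of the phagocyte oxidase, was higher by 2.10 (SE 0.24, limma adjusted p = 6.7e-06). Itgam and Itgb2, the chains of the integrin Mac-1, were higher by 2.09 (SE 0.32, adjusted p = 5.7e-05) and 1.44 (SE 0.22, adjusted p = 6.1e-05). Against a median of 0.26 over all 711 tested genes, the chemoattractant receptor and signalling lists had higher medians, and the ligand and lipid mediator lists lower ones. These medians were not tested against each other.

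**Figure D4:**
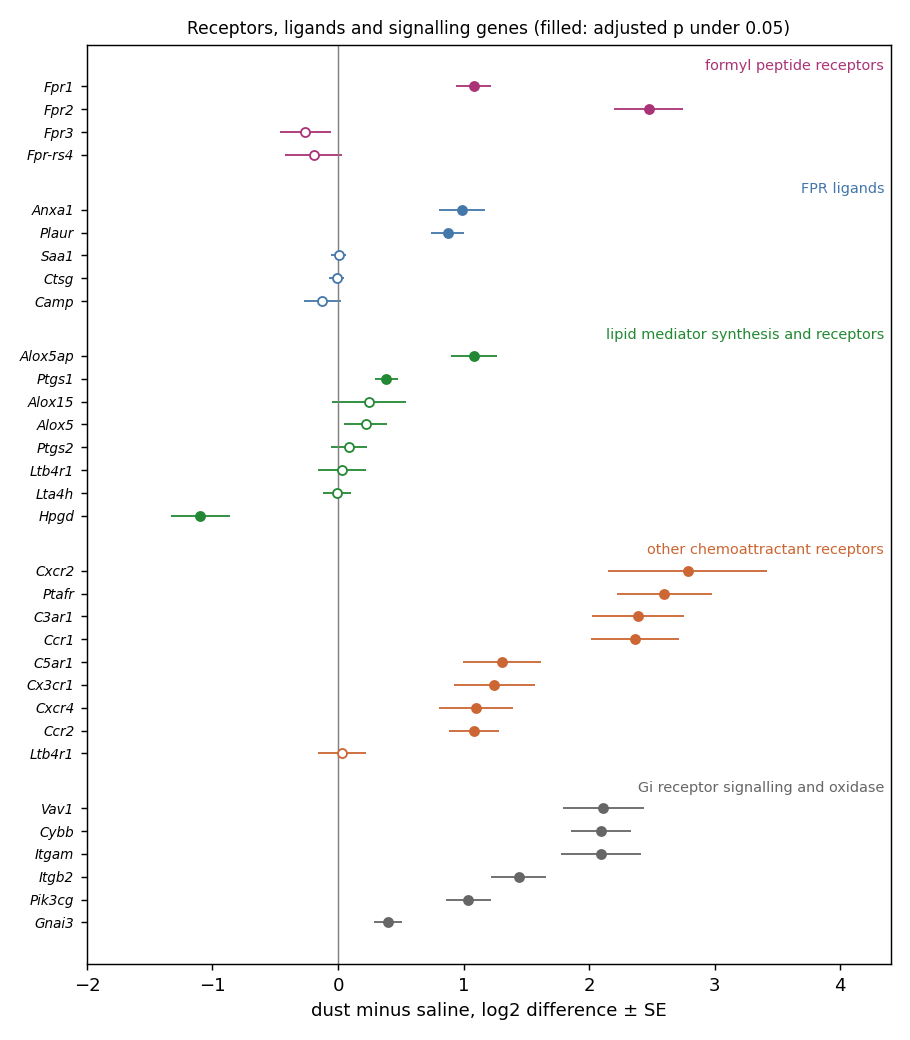
Dust minus saline for tested genes of the family, its ligands, lipid mediator genes, other chemoattractant receptors and signalling genes, as log2 difference ± SE; filled points had a limma adjusted p under 0.05. Fpr2 at 2.47 lay among the highest of the chemoattractant receptors and Fpr1 at 1.08 among the lowest of those that passed, while Hpgd was at -1.10.

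The genes whose levels most resembled each receptor over the lungs were found by the mean absolute log2 distance between centred values, among 469 genes above the floor in every lung. For Fpr2 they were Fcgr2b, the inhibitory receptor for immunoglobulin G, at a distance of 0.20, then C1qb at 0.30, Tnfrsf1b, a tumour necrosis factor receptor, at 0.30, Olr1, a receptor for oxidised lipoprotein, at 0.31, and Ccr1 at 0.32. Fpr1 stood at rank 80 in that order. For Fpr1 they were Csf1r, the receptor of macrophage colony-stimulating factor, at 0.22, Sirpa, an inhibitory receptor of phagocytes, at 0.25, Gusb, a lysosomal enzyme, at 0.25, Laptm5, a lysosomal membrane protein, at 0.25, and Alox5ap at 0.26. Fpr2 stood at rank 394 for Fpr1. The values were centred but not scaled, so a rank also depends on how much a gene rose. The distance between the receptors, 0.745, was larger than the mean absolute deviation of Fpr1 from its own mean, 0.563. The ranks therefore do not show that the receptors vary differently apart from the size of their rise. Over the 13 dust lungs alone, 1 of 5 genes was kept for each receptor. Fpr2 then lay closest to Syk, Fcgr2b, Csf1, Cd274 and Bid, and Fpr1 to H2-Eb1, Klf10, Tnfrsf14, Laptm5 and Il3ra. These distances describe 23 lungs that share the contrast of dust and saline, and say nothing of shared control.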

How the data were processed

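RNA of 23 left lungs was counted on a NanoString nCounter mouse myeloid panel. The deposited values are a signal, probe counts multiplied by a scale factor per lung (0.682 to 4.21, read from the spacing of the values; 100.0% of values above the floor are whole multiples within 0.1 steps); counts under 20 were set to 20, per the file headers and values. Control probes are raw. Which genes set the factor is not stated. As counts under the floor are hidden, no count model was fitted. Lungs were grouped by extract code. log2(value + 1) was fitted with limma 3.58.1 in R 4.3.3: a group-means model of 8 groups, and a model of exposure by day with genotype and sex, over 711 genes above the floor in at least 1 lung (470 in every lung), Benjamini-Hochberg adjusted, threshold 0.05. Within-lung differences used permutation tests (scipy 1.17.1). The fit was tested on simulated data. Members and lists were chosen with earlier results of these data known. Named list genes are up to 4 with the smallest p and any that fell; named markers are the 2 at the highest level. Coordinates are given for the printed sequences only. Some genes of these lists are counted but not reported here by name.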

Additional observations from a re-analysis of the deposited data

Results flagged for a closer look

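Outlying lungs were sought in groups of 4 to 10 by the gap to the nearest lung over the group's range, a test at the 95% level that marks some groups by chance. Fpr2 in Fat-1 dust lungs had 1 such value, 4068 in Fat-1 female dust lung 2 of day 1, where the next was 1716. That lung also had the low positive-control ratio of 1.07. Fpr3 in Fat-1 saline lungs had 50.1 in Fat-1 female saline lung 1 of day 1, with the others at the floor. Fpr-rs4 had an outlying lung in each combination of genotype and exposure: 74.9 in WT saline (next 34.0), 50.8 in Fat-1 saline (next 24.3), 45.7 in WT dust (next 30.1) and 43.4 in Fat-1 dust (next 26.7). In WT saline 3 of 5 lungs were above the floor for Fpr-rs4. In the other groups just named for Fpr3 and Fpr-rs4, most lungs were at the floor. A lone lung above it, as for Fpr3 in Fat-1 saline, is always marked. For Fpr-rs4, 2 lungs were above it in each of the other groups. The marked Fpr-rs4 values rested on 33, 25, 25 and 21 recovered counts, in the order given, with a counting SD of 17.4% to 21.8%. No outlying level is read from these marks.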

How the results depend on the processing

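Over 20 alternatives each, the dust difference of Fpr2 lay between 1.92 and 2.91 and that of Fpr1 between 0.69 and 1.28, called in every one but the fit of day 2 lungs alone (1.92 and 1.22). In that fit 3 genes were called, against 379, 28 on cartridge 1 lungs and 189 on cartridge 2 lungs; those subsets were added after seeing the data and hold fewer lungs. Within genotypes, calls were lost on day 2 lungs (Fpr1 1.36 in Fat-1 and 1.08 in WT; Fpr2 2.01 and 1.82), cartridge 1 lungs (1.36 and 1.19; 2.01 and 2.33) and cartridge 2 lungs (0.82 and 0.98; 2.95 and 2.42), and by title for Fpr1 in Fat-1 (1.06). Values that turned sign had not been called. For genotype by exposure these were, in Fpr1, 0.04 with a cartridge term, 0.12 by title, 0.03 without the lungs in doubt, 0.29 on day 2 and 0.17 on cartridge 1, and in Fpr2 -0.11 without the lungs in doubt and -0.32 on cartridge 1. For Fat-1 minus WT in dust they were 0.086 in Fpr1 on day 2, and in Fpr2 -0.10 without the lungs in doubt and -0.38 on cartridge 1. The Fpr1 day difference in dust was -0.12 by title and -0.061 without the lungs with a saturation message, its day by exposure value -0.11 by title, and Fpr-rs4 0.026 on cartridge 2. The Fpr2 day difference was -0.78 without the lungs in doubt. Fpr2 minus neutrophil markers was 0.86 on day 2, past the threshold. The cause of these changes was not tested. Leaving out 1 lung at a time gave -1.21 to -0.71 for the Fpr2 day difference (6 of 23 not called), -1.38 to -0.87 for its day by exposure value (called without Fat-1 male dust lung 1 of day 2, adjusted p = 0.036), -0.10 to 0.53 for its genotype by exposure and -0.10 to 0.53 for Fat-1 minus WT in dust. For Fpr1 it gave -0.063 to 0.26 (day in dust) and -0.21 to 0.014 (genotype by exposure). With the replicate block the dust difference was 2.46 for Fpr2 and 1.12 for Fpr1, with 352 genes called (277 with the block within each day), and the block changed no call of these receptors. The numbers do not pair lungs: 65 same-numbered pairs had a median correlation of -0.01, from -0.45 to 0.74, and 8 of 23 lungs correlated best with their own number. Fpr3 and Fpr-rs4 have no value under a common floor of 84.3 or a filter at 12 lungs. Their counts of 20 to 44 and the hidden counts below the floor limit what can be read from them.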
